A study of Mus musculus with 18 samples.

Results

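Cxcr5, Ccr7, Gpr183, Cxcr4, Ccr6 and Cxcr3 encode receptors by which B cells read the chemical cues that position them in lymphoid tissue. These 6 genes were taken from a list of mouse symbols matched to the Ensembl gene IDs of a table of 35275 genes, and all 6 were found. RNA had been sequenced in bulk from pan B cells of C57BL/6 spleens, with 3 libraries in each of 6 groups. Every group first had 1 h of a pretreatment at 1000 ng/ml, either mBaffR-mFc (BRFc), a fusion protein that the study used to block the site of BAFF that binds its receptor BR3, or a control antibody (Ab). BAFF at 100 ng/ml or no BAFF followed for 4 h. The groups were BRFc_60mer (mBaffR-mFc, then BAFF 60mer), BRFc_3mer (mBaffR-mFc, then BAFF 3mer), BRFc (mBaffR-mFc, no BAFF), Ab_60mer (control antibody, then BAFF 60mer), Ab_3mer (control antibody, then BAFF 3mer) and Ab (control antibody, no BAFF). BAFF is a survival cytokine of B cells, and 3mer and 60mer name the forms with 3 and 60 subunits. The comparisons ask whether either form changed the transcripts of these receptors within 4 h, and whether mBaffR-mFc altered that change. The labels do not say whether the libraries of a group came from separate animals, so all p-values reflect the spread among these libraries alone, which may be technical.

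Chemotactic receptors are seven-helix proteins that signal through Gi proteins and turn a gradient of ligand into directed movement. In lymphoid organs CXCR5 draws B cells into follicles along CXCL13, CCR7 draws them toward the T cell zone along CCL19 and CCL21, and GPR183 (EBI2) guides them to the follicle border and the interfollicular areas along dihydroxylated oxysterols. CXCR4 responds to CXCL12, CCR6 to CCL20, and CXCR3 to the interferon-induced ligands CXCL9 and CXCL10. The balance of these receptors, in particular of CXCR5, CCR7 and GPR183, changes in activated B cells and sets where they meet T cells.

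Levels are given in FPKM, the fragments of a gene divided by its length in kilobases and by the library total in M (mega), and the library totals recovered from them ran from 12.2 to 25.4 M fragments. Their means were 14.9 M in Ab_60mer, 19.9 M in Ab_3mer and 18.6 M in Ab. After mBaffR-mFc they were 17.8 M in BRFc_60mer, 18.4 M in BRFc_3mer and 21.6 M in BRFc. The summed FPKM of 10 B cell marker genes lay between 3949 and 4464 in the 18 libraries, against 137 to 168 for 10 NK cell markers, 145 to 171 for 10 macrophage and monocyte markers, of which Lyz2 made up 110.06 on average, and 47.9 to 59.0 for 12 T cell markers, of which Lck made up 44.8 and Cd3e 0.507. The B cell sum was lower with BAFF 60mer than in the groups with no BAFF, without overlap. It was 3959 to 4286 in BRFc_60mer and 4319 to 4400 in BRFc, and 3949 to 4171 in Ab_60mer and 4333 to 4456 in Ab. With BAFF 3mer it was 4169 to 4431 in BRFc_3mer, which overlapped BRFc_60mer, and 4194 to 4464 in Ab_3mer, which did not overlap Ab_60mer. Averaged over both pretreatments 4 of the 10 fell against no BAFF (Cd22, Blk, Pax5 and Cd79a, by -0.22 to -0.11) and 0 rose. In that comparison 14.3% of all tested genes were lower and 7.89% higher. The part of the lower B cell sum in the receptor values was not tested. Libraries also differed in connective tissue transcripts. Added together, Dcn, Bgn, Sparc, Col1a1, Col1a2 and Col3a1 reached 8.14 to 12.9 FPKM in 8 libraries, namely all of BRFc_60mer, all of Ab_60mer and replicates 1 and 2 of Ab_3mer, but only 0 to 0.131 FPKM in the other 10. Groups with BAFF 60mer therefore differ from groups without BAFF, and BRFc_60mer from BRFc_3mer, both in BAFF and in these transcripts. The 2 cannot be told apart in those comparisons. Ab_3mer is the one group that holds libraries with and without them. Results that passed are therefore followed by Ab_60mer against the 2 Ab_3mer libraries that carry them, called the carrying libraries below, in which 2.11% of all tested genes passed. Some are also given with the presence of these transcripts as a term of the model, which left 10 genes called in BRFc_60mer against BRFc and 16 in Ab_60mer against Ab.

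The receptors differed widely in level. Per length of gene, Cxcr4 was highest with a mean of 642 ± 63.0 FPKM over all libraries (SD, n = 18) and stood above 99.6% of the genes in the table. Ccr7 followed at 458 ± 21.6 FPKM, and every library had more Cxcr4 than Ccr7. Cxcr5 had 159 ± 8.93 FPKM and Ccr6 157 ± 10.4 FPKM, and Cxcr5 was the higher of the pair in 9 of 18 libraries, so their levels did not differ beyond the spread. Gpr183 had 50.7 ± 7.62 FPKM and was below Ccr6 in 18 of 18 libraries. Cxcr3 was lowest at 0.864 ± 0.168 FPKM. Only genes that averaged 1 FPKM or more were tested, and the 5 receptors other than Cxcr3 met that filter.

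The order of neighbours depended on the gene length by which fragments are divided. The deposited values rest on lengths of 1354 bases for Cxcr4, 1978 for Ccr7, 2719 for Cxcr5, 1433 for Ccr6, 2942 for Gpr183 and 1731 for Cxcr3. Taking the summed length of all annotated exons in its place, Cxcr4 came to 481 ± 47.2 FPKM and was above Ccr7 in 13 of 18 libraries (SD, n = 18). On that scale Cxcr5 had 130 ± 7.28 FPKM and was above Ccr6, at 97.3 ± 6.42 FPKM, in 18 of 18 libraries. The order of Cxcr5 and Ccr6 thus depends on the length used. For Gpr183 the length behind the values exceeds its 2887 bases of annotated exons, so the deposited values may rest on other gene models. Comparisons between groups are within a gene and do not depend on its length.

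**Figure D1:**
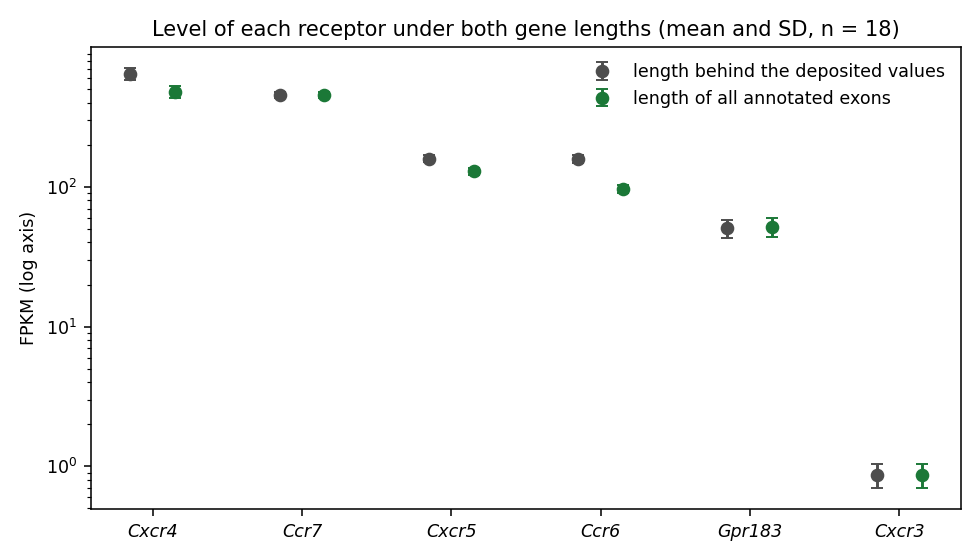
Mean FPKM of each receptor over 18 libraries on a log axis, with the length behind the deposited values (grey) and with the length of all annotated exons (green); bars are SDs. The step between Cxcr4 and Ccr7 narrows to 481 against 458 FPKM with the exon length, while Cxcr5 and Ccr6 move apart to 130 and 97.3 FPKM.

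Cxcr5, the CXCL13 receptor that defines entry into the B cell follicle, lies on the minus strand of chromosome 9 (GRCm38, 44511787 to 44561877). In BRFc_60mer its 3 libraries had 162.6, 167.4 and 169.7 FPKM, in BRFc_3mer 152.8, 149.0 and 147.1 FPKM, and in BRFc 149.3, 153.1 and 156.7 FPKM. With the control antibody it had 174.4, 173.8 and 172.1 FPKM in Ab_60mer, 162.2, 152.4 and 156.2 FPKM in Ab_3mer, and 154.3, 156.3 and 154.0 FPKM in Ab. Every library with BAFF 60mer was above every library with BAFF 3mer or no BAFF, and no other group stood apart. The margin was narrow, with 162.59 FPKM in BRFc_60mer replicate 1 and 162.15 FPKM in Ab_3mer replicate 1. Of all tested genes, 2.76% were wholly higher with BAFF 60mer than without BAFF and 3.07% than with BAFF 3mer. The share higher than both at once is not given here.

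The rise of Cxcr5 was small and regular. Its mean was 173 ± 1.19 FPKM in Ab_60mer and 155 ± 1.26 FPKM in Ab (SD, n = 3 each), a ratio of 1.12. On the scale of log2(FPKM + 1) this was a difference of 0.16 ± 0.034 (SE; limma, adjusted p = 0.00569, adjusted by Benjamini-Hochberg over the 11646 genes tested). Of the 5 tested receptors it was the only one that passed in Ab_60mer against Ab at an adjusted p under 0.05, where 14% of all tested genes did and 5.04% were higher. Against Ab_3mer the difference was 0.14 (limma, adjusted p = 0.0216), and Cxcr5 was again the only receptor called, with 4.81% of all tested genes called and 1.8% higher. BRFc_60mer differed from BRFc_3mer by 0.15 (limma, adjusted p = 0.0141), a comparison in which 5.16% of genes passed and 2.05% were higher. In BRFc_60mer against BRFc the difference was 0.12 with an adjusted p of 0.0505, just outside the threshold. A higher share of a B cell subset that makes more of a transcript and more of it per cell cannot be told apart in bulk RNA, here or for the receptors below.

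The difference of Cxcr5 was nearly the same size among libraries that all carry connective tissue transcripts. Ab_60mer exceeded replicates 1 and 2 of Ab_3mer by 0.14 ± 0.040, with an adjusted p of 0.0853 in limma. With the presence of these transcripts as a term, the differences were 0.11 in BRFc_60mer against BRFc and 0.15 in Ab_60mer against Ab, and neither passed (limma, adjusted p = 0.98 and 0.509). BRFc_60mer against BRFc_3mer, which differ in these transcripts as well, did not pass with that term either. The call against Ab_3mer was lost without Ab_60mer replicate 1 or 2 or Ab_3mer replicate 2 or 3, with adjusted p-values between 0.065 and 0.0853, and that against BRFc_3mer without BRFc_60mer replicate 2 or BRFc_3mer replicate 2 or 3, with values between 0.0551 and 0.0761 (limma). With the library total as a term, or in a fit of only the groups compared, the call against Ab_3mer was lost as well. Cxcr5 shares 110 exon bases with Bcl9l on the opposite strand, which had 3.75 to 6.57 FPKM. Whether the counting used strand is not given in the sources used here.

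**Figure D2:**
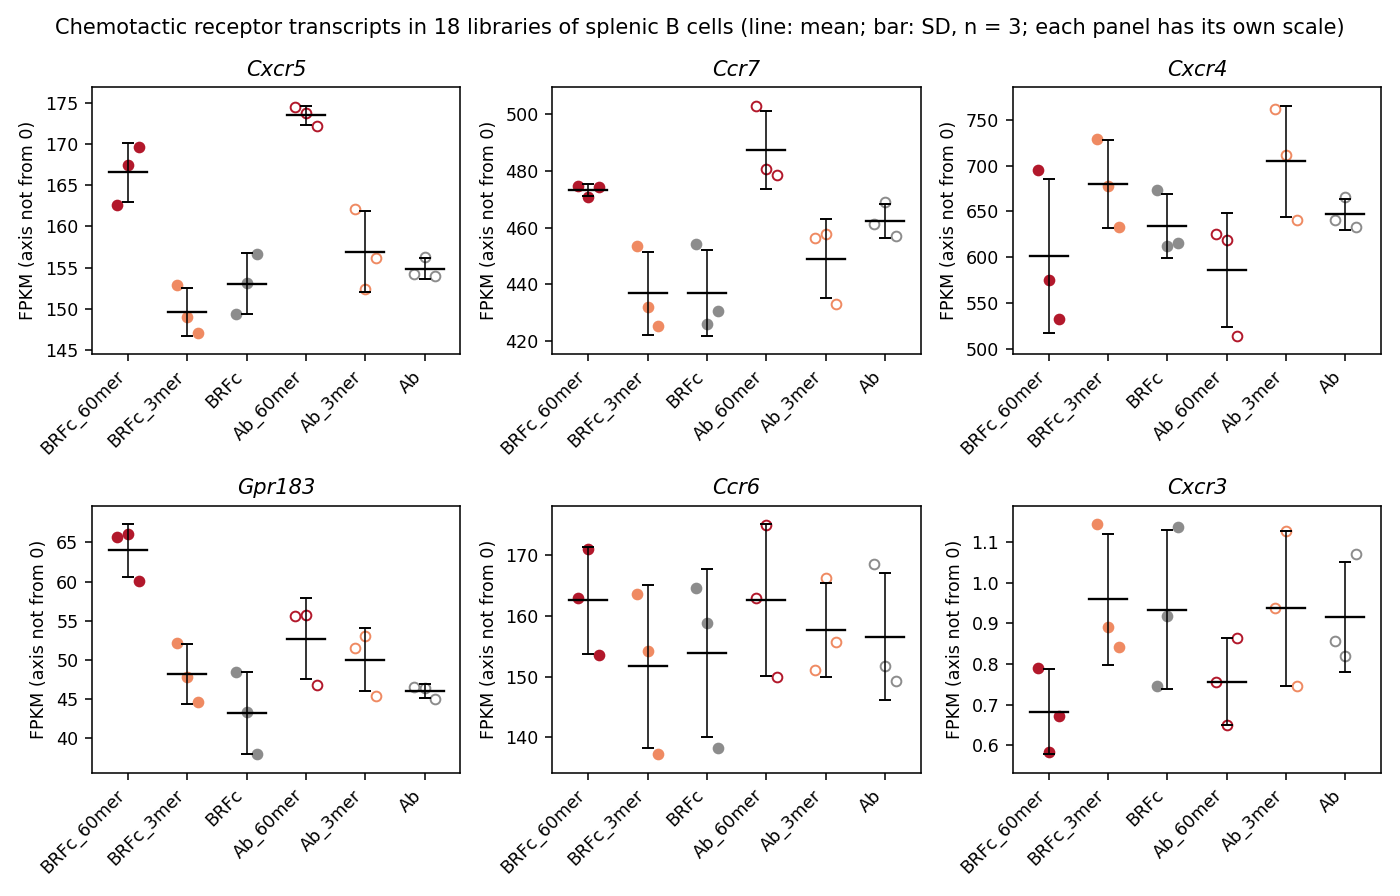
FPKM of each receptor in the 18 libraries by group; points are libraries, lines group means and bars SDs (n = 3), red for BAFF 60mer, orange for BAFF 3mer and grey for no BAFF, filled after mBaffR-mFc and open after the control antibody, on an axis of its own for each gene that does not start at 0. Cxcr5 and Ccr7 are higher in each BAFF 60mer library than in any library without BAFF, and Gpr183 is highest in BRFc_60mer at 60.1 to 66.1 FPKM.

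Ccr7, the receptor of the T zone chemokines, is on the minus strand of chromosome 11 (GRCm38, 99144196 to 99155077). It had 474.5, 470.8 and 474.5 FPKM in BRFc_60mer, 453.4, 431.9 and 425.3 FPKM in BRFc_3mer, and 454.3, 426.2 and 430.8 FPKM in BRFc. After the control antibody it had 503.0, 480.6 and 478.4 FPKM in Ab_60mer, 456.5, 457.8 and 433.1 FPKM in Ab_3mer, and 461.2, 468.9 and 457.2 FPKM in Ab. Here too each of the 6 libraries with BAFF 60mer was above all 12 others, although by a narrow margin, the lowest being 470.8 FPKM and the highest of the others 468.9 FPKM. The shares of all tested genes given for Cxcr5 apply to Ccr7 as well.

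None of the 4 comparisons of BAFF 60mer within a pretreatment called Ccr7. The differences were 0.11 in BRFc_60mer against BRFc, 0.12 in BRFc_60mer against BRFc_3mer, 0.08 in Ab_60mer against Ab and 0.12 in Ab_60mer against Ab_3mer, each with an SE of 0.039 (limma, adjusted p = 0.109, 0.11, 0.211 and 0.0996). Averaged over both pretreatments, a comparison added after seeing the data, BAFF 60mer exceeded no BAFF by 0.10 ± 0.028 (limma, adjusted p = 0.022) and BAFF 3mer by 0.12 ± 0.028 (adjusted p = 0.0102). Against no BAFF it did not pass without BRFc replicate 2 (adjusted p = 0.0555) or Ab_60mer replicate 1 (0.0597). Among the carrying libraries the difference from BAFF 3mer was 0.09 ± 0.043 (limma, adjusted p = 0.339). CCR7 is also a receptor of mature dendritic cells. The summed FPKM of 8 dendritic cell markers was 18.4 to 22.8 in BRFc_60mer and 13.2 to 15.5 in BRFc, and 18.8 to 21.6 in Ab_60mer and 13.7 to 15.7 in Ab. Of its 3 tested members only Zbtb46, a transcription factor of classical dendritic cells, passed in the averaged comparison, at 15.8 FPKM with BAFF 60mer and 9.77 FPKM without BAFF, while Itgax (1.86 and 2.17 FPKM) and Flt3 (1.51 and 1.60 FPKM) did not. The part of these cells in the Ccr7 values was not tested.

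Gpr183, which encodes the oxysterol receptor EBI2, showed the largest difference among the receptors that passed and lies on the minus strand of chromosome 14 (GRCm38, 121952551 to 121965195). Its levels were 65.7, 66.1 and 60.1 FPKM in BRFc_60mer, 52.1, 47.9 and 44.6 FPKM in BRFc_3mer, and 48.4, 43.3 and 38.0 FPKM in BRFc. Its levels after the control antibody were 55.6, 55.7 and 46.8 FPKM in Ab_60mer, 51.6, 53.1 and 45.4 FPKM in Ab_3mer, and 46.6, 46.5 and 45.03 FPKM in Ab. All 3 BRFc_60mer libraries lay above the other 15, and the share of all tested genes that do so is not given here. Ab_60mer overlapped Ab_3mer, and its lowest library was just above the highest of Ab.

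Gpr183 rose with BAFF 60mer under mBaffR-mFc. Its mean was 64.0 ± 3.34 FPKM in BRFc_60mer and 43.2 ± 5.23 FPKM in BRFc (SD, n = 3 each), a ratio of 1.48 and a log2 difference of 0.56 ± 0.086 (limma, adjusted p = 0.00119). It was the only receptor called in that comparison, in which 4.83% of tested genes passed and 1.46% were higher. Against BRFc_3mer, at 48.2 ± 3.79 FPKM, the difference was 0.40 ± 0.086 (limma, adjusted p = 0.0115), so that Gpr183 and Cxcr5 were the 2 of 5 receptors called there. Under the control antibody the mean was 52.7 ± 5.14 FPKM in Ab_60mer and 46.0 ± 0.871 FPKM in Ab. That difference was 0.19 ± 0.086, and it did not pass (limma, adjusted p = 0.157). Against Ab_3mer, at 50.03 ± 4.04 FPKM, it was 0.07 (limma, adjusted p = 0.683).

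Whether the BAFF 60mer effect on Gpr183 depended on the pretreatment was tested directly. The effect under mBaffR-mFc exceeded that under the control antibody by 0.37 on the log2 scale (95% interval 0.12 to 0.63). This had an unadjusted p of 0.00727 and an adjusted p of 0.88 in limma, so the difference between pretreatments did not pass over all genes, where 0.00859% of genes, 1 in number, were called. The direct comparison of BRFc_60mer with Ab_60mer gave 0.28 ± 0.086, and its adjusted p was 0.773 in limma. Among carrying libraries Gpr183 differed by 0.01 ± 0.092 between Ab_60mer and Ab_3mer (limma, adjusted p = 0.986). That comparison keeps replicate 3 of Ab_60mer and leaves out replicate 3 of Ab_3mer. The third library was the lowest for Gpr183 in 6 of 6 groups, so this value cannot separate the 2 shifts, and it holds no mBaffR-mFc library. With connective tissue transcripts as a term, the difference of BRFc_60mer was 0.36 ± 0.15 from BRFc and 0.20 ± 0.15 from BRFc_3mer (limma, adjusted p = 0.838 and 0.835). Within a group that term varies only in Ab_3mer, between replicates 1 and 2 and replicate 3. For Gpr183 it therefore cannot be told apart from the lower value of the third library. Leaving out BRFc_60mer replicate 2 or BRFc_3mer replicate 3 ended the call against BRFc_3mer (limma, adjusted p = 0.0512 and 0.0694), whereas no single library ended that against BRFc. The Ubac2 gene spans Gpr183 on the opposite strand, shares 0 exon bases with it and had 21.9 to 26.7 FPKM.

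The 250 bases before the start site of Gpr183 are printed because it had the largest difference among the receptors that passed, in BRFc_60mer against BRFc. RefSeq (GRCm38.p6) gave such a window for 4 of the 6 receptors, 5 windows in all, and none for Cxcr5 or Ccr7. These windows were searched on both strands for a TATA box, a GC box, a KLF box, an E-box and the NF-kB consensus, and matches are in capitals. The window of Gpr183 is chr14:121965194-121965443 on the minus strand, has a GC content of 32%, against a median of 52.4% over all promoters, and holds 2 E-boxes (CANNTG), at bases -55 to -50 and -33 to -28 from the start site. E-box matches occur in 66.2% of 32841 promoters of that length. A match is a description of the letters and no evidence that a factor binds.
Gpr183: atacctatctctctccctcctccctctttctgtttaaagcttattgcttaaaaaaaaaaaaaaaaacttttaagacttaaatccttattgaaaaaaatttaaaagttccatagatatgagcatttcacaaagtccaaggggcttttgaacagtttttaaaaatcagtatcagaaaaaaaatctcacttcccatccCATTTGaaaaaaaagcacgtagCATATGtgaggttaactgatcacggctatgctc

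Cxcr4, the CXCL12 receptor, is on the minus strand of chromosome 1 (GRCm38, 128588199 to 128592293). It had 695.3, 575.6 and 533.0 FPKM in BRFc_60mer, 728.9, 677.6 and 633.2 FPKM in BRFc_3mer, and 673.9, 612.5 and 615.5 FPKM in BRFc. Its values after the control antibody were 625.0, 618.6 and 514.6 FPKM in Ab_60mer, 761.3, 712.0 and 640.5 FPKM in Ab_3mer, and 641.1, 666.2 and 633.4 FPKM in Ab. All libraries of Ab_60mer lay below those of Ab and of Ab_3mer, whereas BRFc_60mer overlapped both BRFc and BRFc_3mer. How many of all tested genes separate in this way is not given here.

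In contrast to the receptors above, the differences of Cxcr4 with BAFF 60mer were negative, and none passed within a pretreatment. They were -0.08 in BRFc_60mer against BRFc, -0.18 in BRFc_60mer against BRFc_3mer, -0.15 in Ab_60mer against Ab and -0.27 in Ab_60mer against Ab_3mer, each with an SE of 0.093 (limma, adjusted p = 0.684, 0.299, 0.309 and 0.114). Averaged over both pretreatments BAFF 60mer differed from BAFF 3mer in Cxcr4 by -0.23 ± 0.066 (limma, adjusted p = 0.0299), while it did not pass against no BAFF (-0.12 ± 0.066, adjusted p = 0.223). The first of these did not pass without any one of 7 libraries, namely BRFc_60mer replicates 2 and 3, Ab_60mer replicate 3, and replicates 1 and 2 of BRFc_3mer and of Ab_3mer, with adjusted p-values between 0.0543 and 0.0746. Among carrying libraries the difference of Ab_60mer from Ab_3mer was -0.33 ± 0.10 (limma, adjusted p = 0.112). That value keeps replicate 3 of Ab_60mer and leaves out replicate 3 of Ab_3mer, and the third library was the lowest for Cxcr4 in 5 of 6 groups.

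The window before the start of Cxcr4 is shown beside that of Gpr183 because the windows of these receptors differ in base composition. It is chr1:128592300-128592549 on the minus strand with a GC content of 61.2%. The TATA box (TATAAA) is found at bases -30 to -25 and, overlapping it on the other strand, at -32 to -27. GGGCGG, a GC box, has 3 matches between -95 and -45, all on the other strand, and 1 KLF box (CACCC) begins at -219. The TATA box occurs in 12.4% of all promoters of that length, the GC box in 32.8% and the KLF box in 52.0%.
Cxcr4: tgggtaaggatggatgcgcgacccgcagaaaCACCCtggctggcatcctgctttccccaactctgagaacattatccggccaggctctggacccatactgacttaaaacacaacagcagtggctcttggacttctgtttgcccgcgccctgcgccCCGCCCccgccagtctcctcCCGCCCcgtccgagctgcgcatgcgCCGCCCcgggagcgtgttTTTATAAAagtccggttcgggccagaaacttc

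Ccr6, the CCL20 receptor, which is found on most mature B cells, lies on the plus strand of chromosome 17 (GRCm38, 8236043 to 8257141). Its levels were 163.0, 171.1 and 153.6 FPKM in BRFc_60mer, 163.6, 154.3 and 137.2 FPKM in BRFc_3mer, and 164.5, 158.8 and 138.3 FPKM in BRFc. Ccr6 had 162.9, 174.9 and 150.0 FPKM in Ab_60mer, 151.1, 166.2 and 155.7 FPKM in Ab_3mer, and 168.5, 151.8 and 149.3 FPKM in Ab. All groups overlapped. Its largest difference was 0.10 ± 0.077 in BRFc_60mer against BRFc_3mer (limma, adjusted p = 0.516), with a 95% interval of -0.06 to 0.27, and in Ab_60mer against Ab the interval was -0.11 to 0.22. A change in Ccr6 of the size seen for Cxcr5 lies within these intervals.

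A window before one of the start sites of Ccr6 is printed because it holds the only NF-kB consensus match among the 5 windows, in a receptor that passed no test. It is chr17:8242276-8242525 on the plus strand, with a GC content of 46%. The consensus matches at bases -81 to -72 and, overlapping this, at -80 to -71, and there are 2 E-boxes, at -225 to -220 and -104 to -99. The NF-kB consensus occurs in 7.25% of all promoters of that length. Cxcr5 and Ccr7 had no window and were not searched. The other window of Ccr6, chr17:8235793-8236042, held no match to the 5 motifs, and that of Cxcr3 held 1 E-box.
Ccr6: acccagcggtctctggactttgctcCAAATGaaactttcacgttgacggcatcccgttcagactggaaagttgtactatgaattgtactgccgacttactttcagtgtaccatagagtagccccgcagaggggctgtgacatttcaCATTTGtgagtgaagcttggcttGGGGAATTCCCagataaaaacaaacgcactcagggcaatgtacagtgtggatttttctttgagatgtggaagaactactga

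Cxcr3, the receptor of CXCL9 and CXCL10, is on the minus strand of the X chromosome (GRCm38, 101731535 to 101734269) and was close to the limit of detection, with 16 to 50 fragments in a library. It had 0.79, 0.58 and 0.67 FPKM in BRFc_60mer, 1.14, 0.89 and 0.84 FPKM in BRFc_3mer, and 0.75, 0.92 and 1.14 FPKM in BRFc. Cxcr3 had 0.76, 0.65 and 0.86 FPKM in Ab_60mer, 0.94, 1.13 and 0.75 FPKM in Ab_3mer, and 0.86, 0.82 and 1.07 FPKM in Ab. BRFc_60mer lay wholly below BRFc_3mer and below Ab, and overlapped BRFc and Ab_60mer. The share of all genes that separate in this way is not given here. Summed over 6 libraries each, 122 fragments were found with BAFF 60mer, 188 with BAFF 3mer and 194 without BAFF, or 1.24, 1.64 and 1.61 per M fragments. Cxcr3 did not pass the filter, and without it 22255 genes were fitted. There, averaged over both pretreatments, BAFF 60mer differed from no BAFF by -0.16 ± 0.069 and from BAFF 3mer by -0.18 ± 0.069 (limma, adjusted p = 0.168 and 0.163). The added 1 shrinks differences of a gene this low, and in a fit of the recovered fragments by voom and limma they were -0.32 ± 0.19 and -0.36 ± 0.19 (adjusted p = 0.235 and 0.22). NK and T cells also carry CXCR3. The summed FPKM of 10 NK cell markers was 148 to 149 in BRFc_60mer and 149 to 168 in BRFc, and 137 to 138 in Ab_60mer and 158 to 168 in Ab. It was also lower in Ab_3mer, at 141 to 147, where the mean of Cxcr3 was 0.937 FPKM against 0.915 FPKM in Ab. The T cell sum was 48.7 to 57.2 in BRFc_60mer and 47.9 to 55.5 in BRFc, and 47.9 to 53.3 in Ab_60mer and 53.3 to 59.0 in Ab. The part of these cells in the Cxcr3 values was not tested.

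Over the 6 groups, 3 of the 5 tested receptors passed the moderated F test of limma, a test that 8.93% of all tested genes passed. They were Cxcr5, Gpr183 and Ccr7 (limma, adjusted p = 0.00324, 0.00493 and 0.0494), and Cxcr4 and Ccr6 did not pass (adjusted p = 0.271 and 0.847). The third call is at the edge of the threshold, and 2 receptors passed in 16 of the 18 fits that leave out a library. Averaged over both pretreatments, BAFF 60mer against no BAFF called the same 3 receptors, all higher, in a comparison where 22.1% of tested genes passed and 7.89% were higher. Cxcr5 differed by 0.14 ± 0.024 and Gpr183 by 0.37 ± 0.061 (limma, adjusted p = 0.000606 and 0.000439). The 6 libraries with BAFF 60mer did not overlap the 6 without BAFF for Cxcr5 and Ccr7, as was so in the higher direction for 2.76% of tested genes. BAFF 60mer against BAFF 3mer called 4 receptors, where 14.5% of genes passed. Cxcr5 (0.15), Gpr183 (0.24) and Ccr7 (0.12) were higher, as were 5.9% of genes, and Cxcr4 (-0.23) was lower, as were 8.6%. Cxcr5 and Ccr7 did not overlap there either, as was so in the higher direction for 3.07% of genes. These averages use the same libraries as the comparisons within a pretreatment, and those against BAFF 3mer and against no BAFF share the BAFF 60mer libraries.

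**Figure D3:**
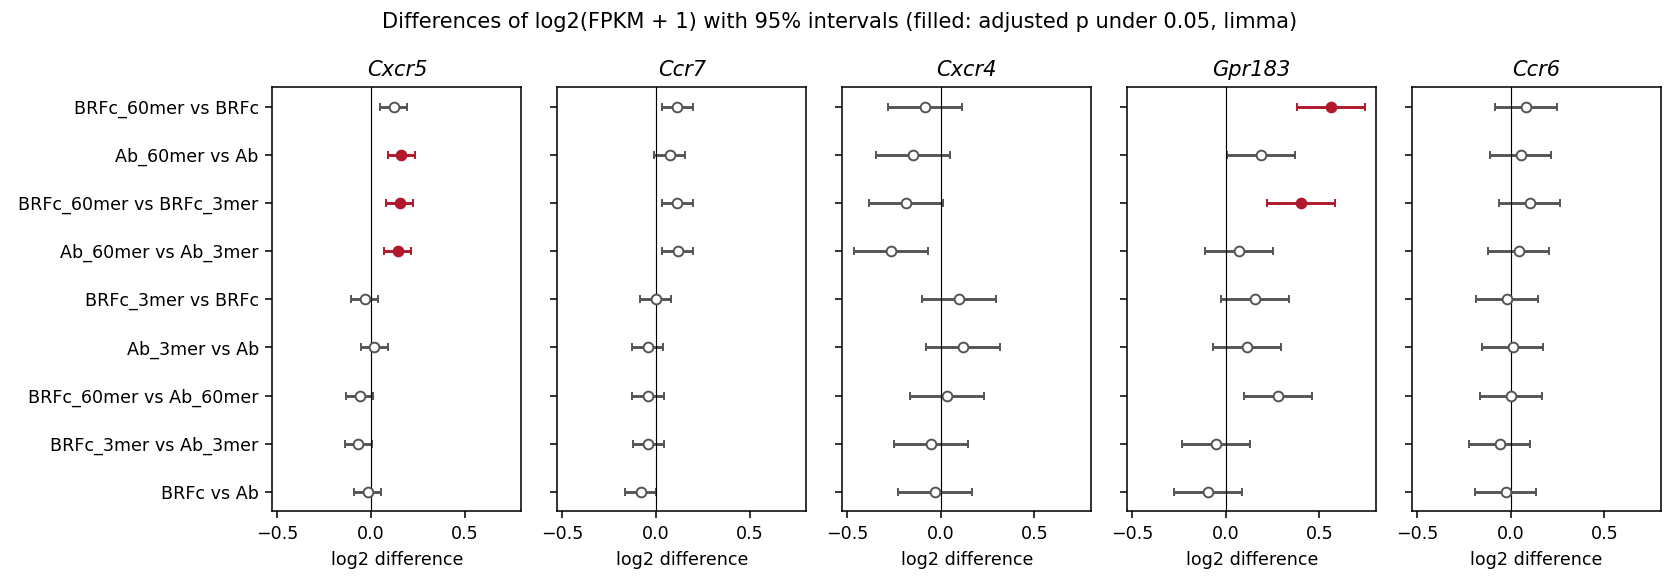
Differences of log2(FPKM + 1) between groups for the 5 tested receptors, with 95% intervals; filled red points passed at an adjusted p under 0.05 (limma). Cxcr5 is above 0 in each comparison of BAFF 60mer with BAFF 3mer or no BAFF, Gpr183 is at 0.56 and 0.40 under mBaffR-mFc and at 0.19 and 0.07 under the control antibody, and each interval for BAFF 3mer against no BAFF within a pretreatment includes 0.

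No tested receptor passed with BAFF 3mer. In BRFc_3mer against BRFc and in Ab_3mer against Ab, 0 receptors and 0% of all genes passed limma, with 388 and 632 genes at an unadjusted p under 0.05. Averaged over both pretreatments the same was true, with 524 such genes. Gpr183 had the smallest p of the 5 there, at 0.14 ± 0.061 (limma, 95% interval 0.01 to 0.26, unadjusted p = 0.04, adjusted p = 0.958). Its mean was 48.2 FPKM in BRFc_3mer and 43.2 FPKM in BRFc, and 50.03 FPKM in Ab_3mer and 46.0 FPKM in Ab, with overlapping libraries. For Cxcr5 the averaged difference was -0.01 with an interval of -0.06 to 0.04, and for Ccr7 -0.02 with an interval of -0.08 to 0.04. Both intervals end below the averaged rises with BAFF 60mer, which were 0.14 for Cxcr5 and 0.10 for Ccr7. For Ccr7 the interval of that rise begins at 0.0363, just under the end of the BAFF 3mer interval at 0.0373. Both contrasts share the libraries without BAFF. Cxcr4 was at 0.11 (interval -0.03 to 0.25) and Ccr6 at 0.00 (interval -0.12 to 0.11).

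Nor did any receptor pass the tests of mBaffR-mFc against the control antibody. None of the 5 passed in BRFc_60mer against Ab_60mer, where 0.0258% of genes did (3 genes), in BRFc_3mer against Ab_3mer or in BRFc against Ab, where 0% did (limma; 452 and 688 genes at an unadjusted p under 0.05). Cxcr5 and Ccr7 were lower after mBaffR-mFc than after the control antibody in each of the 3 BAFF states. The differences were -0.06, -0.07 and -0.02 for Cxcr5 and -0.04, -0.04 and -0.08 for Ccr7 with BAFF 60mer, BAFF 3mer and no BAFF. All 3 BRFc_60mer libraries were below all Ab_60mer libraries for both genes. Neither gene passed there (limma, adjusted p = 0.993 for each), and the share of all genes that separate so is not given here. Averaged over the 3 states, a comparison added after seeing the data, the difference was -0.05 ± 0.020 for Cxcr5 and -0.05 ± 0.023 for Ccr7, with unadjusted p-values of 0.0266 and 0.0287 and an adjusted p of 0.998 for each. That comparison called 0.00859% of genes and none of the receptors. The interactions of BAFF with the pretreatment called no receptor for either form. For Cxcr5 with BAFF 60mer the interaction was -0.04 (95% interval -0.14 to 0.06), so the rise under mBaffR-mFc was neither shown to differ from that under the control antibody nor shown to be alike.

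Libraries of one group varied together for some of these receptors and not for others. The residual SD of Cxcr5 on the log2 scale was 0.029, and that of Ccr7 0.038, and only 0.309% and 1.71% of tested genes had a smaller one. For Cxcr4 (0.13), Gpr183 (0.12) and Ccr6 (0.10) it was larger than that of 69.0%, 64.1% and 56.6% of genes. After the group means were taken out, Pearson correlations over the 18 libraries were 0.812 for Gpr183 with Ccr6, 0.758 for Cxcr4 with Gpr183, 0.746 for Ccr7 with Gpr183 and 0.632 for Ccr7 with Cxcr4. Those of Cxcr5 with the others lay between -0.236 and 0.0869. These points share library, depth and group. In the order of deposition the third library was the lowest of its group in 6 of 6 groups for Gpr183 and in 5 of 6 for Cxcr4 and Ccr6, against 4 for Ccr7 and 3 for Cxcr5. Of all tested genes 1.49% had this in 6 groups and 6.98% in at least 5. The labels give no replicate numbers, and whether those libraries share a source was not tested.

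The genes whose levels ran most like each receptor over the 18 libraries, by Pearson correlation of log2(FPKM + 1), differed between receptors. Swap70 (0.934), Psmd1 (0.929) and Lpcat1 (0.926) came first for Cxcr5, and Sdad1 (0.905), Bcl2a1d (0.896) and Sema7a (0.894) for Ccr7. The nearest to Gpr183 were Cd83 (0.948), a surface marker of activated B cells and dendritic cells, Tagap (0.944) and Samsn1 (0.931). For Cxcr4 they were Crem (0.956), Fosl2 (0.929) and the immediate early gene Nr4a1 (0.913), and for Ccr6 Crisp3 (0.895), Mak16 (0.884) and Stap1 (0.857). Within groups the correlation of Cxcr4 with Nr4a1 was 0.966 and that of Gpr183 with Cd83 was 0.945, whereas that of Cxcr5 with Swap70 was 0.433. Between the receptors themselves it was highest for Cxcr5 with Ccr7 (0.794) over all libraries and 0.0869 within groups.

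Most ligands were nearly absent from these cultures as transcripts, with Cxcl10 as the exception. Ccl20 was at 0 in all 18 libraries and Ccl19 in 17, and the means of Cxcl13, the ligand of CXCR5, and Cxcl12 were 0.118 and 0.0389 FPKM. Ch25h and Cyp7b1, which make the ligand of GPR183, averaged 0.0390 and 0.00811 FPKM. Of 11 listed ligands and oxysterol enzymes 2 passed the filter. Cxcl10 had 7.73 FPKM with BAFF 60mer and 10.1 FPKM without BAFF, and Hsd3b7, which inactivates the oxysterol ligand, had 2.98 and 3.65 FPKM. Neither passed (-0.35 and -0.22; limma, adjusted p = 0.0732 and 0.1).

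Other chemokine receptors were mostly low. Of 18 listed, 6 passed the filter, and averaged over pretreatments BAFF 60mer against no BAFF called 1, Ccr2, a receptor of inflammatory chemokines, which fell to 9.94 FPKM against 11.7 FPKM (-0.22 ± 0.052; limma, adjusted p = 0.00627). Among 14 tested receptors of other positioning cues, 4 fell and 0 rose. S1pr1, the sphingosine 1-phosphate receptor that directs exit from lymphoid tissue, had 80.9 FPKM with BAFF 60mer and 118 FPKM without (-0.54 ± 0.024; limma, adjusted p = 5.51e-10). S1pr4 had 25.0 and 38.3 FPKM (-0.60 ± 0.070; limma, adjusted p = 2.26e-05), and Gpr55 (-0.24) and Ptger4, a prostaglandin E2 receptor (-0.15), were the others. Among the carrying libraries S1pr1 (-0.55) and S1pr4 (-0.47) passed, while Ccr2 (-0.12), Gpr55 (-0.24) and Ptger4 (-0.17) did not (limma, adjusted p = 0.531, 0.327 and 0.331). BAFF 60mer against no BAFF called 14.3% of all tested genes lower and 7.89% higher.

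The list of G protein signalling and desensitisation, through which all of these receptors act, held genes that fell and none that rose. Of 23 tested genes 6 fell and 0 rose, where 14.3% of all tested genes were lower and 7.89% higher, and the median difference was -0.12, against -0.02 for all tested genes. Rgs14, a GTPase-activating protein for Gi subunits, fell to 11.1 FPKM against 17.2 FPKM (-0.59 ± 0.057; limma, adjusted p = 3.9e-06). Beta-arrestin 1 (Arrb1, -0.24), which uncouples activated receptors, Gng2 (-0.23), a G protein gamma subunit, and Grk6 (-0.23), a receptor kinase, fell as well, as did Rgs2 (-0.26) and Rgs10 (-0.35). Rgs14 and Arrb1 also passed within each pretreatment, with -0.63 and -0.24 in BRFc_60mer against BRFc and -0.55 and -0.24 in Ab_60mer against Ab. Among the carrying libraries 1 of the 23 passed, Rgs14 at -0.44 (limma, adjusted p = 0.0198), while Arrb1 (-0.22), Rgs2 (-0.29), Gng2 (-0.18), Grk6 (-0.14) and Rgs10 (-0.23) did not, with adjusted p-values between 0.0785 and 0.504.

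Genes of the migration machinery and of homing adhesion moved both ways. Of 28 tested machinery genes 4 rose and 8 fell, with a median of -0.04, where 7.89% of all tested genes were higher and 14.3% lower. Rapgef1, an exchange factor for Rap1, had 111 FPKM with BAFF 60mer and 84.3 FPKM without (0.39 ± 0.028; limma, adjusted p = 1.72e-07), and Tagap (0.43), Dock2 (0.15) and Dock8 (0.12) also rose. Rasgrp2, likewise an exchange factor for Rap1, fell to 104 FPKM against 146 FPKM (-0.48 ± 0.058; limma, adjusted p = 3.47e-05), and Btk (-0.20), Rhoh (-0.25) and Tbc1d10c (-0.30) fell with it. Of 12 tested adhesion genes 2 rose and 3 fell, beside the same shares of all tested genes. Cd44, the hyaluronan receptor, had 64.4 and 46.8 FPKM (0.45 ± 0.031; limma, adjusted p = 1.48e-07) and Icam1 26.8 and 21.9 FPKM (0.28), while the integrin chain Itgb7 had 24.4 and 38.8 FPKM (-0.64 ± 0.096). Itgb2 and Icam2 fell by 0.13 each on the log2 scale. Among the carrying libraries Rapgef1 (0.44), Rasgrp2 (-0.38), Btk (-0.23), Cd44 (0.39) and Icam2 (-0.21) passed, while Icam1 (0.24), Rhoh (-0.22) and Itgb7 (-0.52) did not (limma, adjusted p = 0.0533, 0.0704 and 0.098). Dock8 (0.13), Dock2 (0.11), Itgb2 (-0.06) and Tbc1d10c (-0.10) did not pass either (adjusted p = 0.328, 0.343, 0.559 and 0.598). Tagap, which ran with Gpr183 over all libraries, was at 0.07 ± 0.12 there (adjusted p = 0.851).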

How the data were processed

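The labels give 18 libraries of total RNA in 6 groups, assigned by their treatment labels, and the authors deposited 1 table of FPKM, which per the labels' protocols a sequencing company computed for them. Aligner, counting tool, genome build and scaling are not given in the sources used here. GENCODE release M21 (GRCm38), the source of symbols, positions and exon lengths, held 34490 of its 35275 Ensembl gene IDs. All columns of sample values were used.

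Library totals and whole fragments per gene were recovered from the steps between low FPKM values. In genes with 1 transcript, 86.6% of values below 500 fragments were whole numbers within 0.05, and the length behind the values was found for 99.98% of tested genes to within 0.01 of a fragment. That length was the mean transcript length, to within 1 base, in 51.9% of them and the exon length in 10.0%. Totals ran from 12.2 to 25.4 M fragments (median 18.4 M).

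Genes averaging 1 FPKM or more (11646) were tested as log2(FPKM + 1) with limma 3.58.1 in R 4.3.3, a moderated test with a variance trend over all 18 libraries, at a Benjamini-Hochberg adjusted p under 0.05. Comparisons were the 9 between groups that differ in 1 agent, 2 interactions of BAFF with the pretreatment and an F test, and averages over pretreatments or BAFF states were added after seeing the data. The fit was tested on simulated data. Members, lists and rules were chosen with earlier results of these data known. From each list up to 4 genes that passed, smallest p first, could be named, or the 2 smallest p-values where none passed. The genes of ligands given by level, and Gpr55 and Ptger4 or Rgs2 and Rgs10 as the rest of a count, were named for completeness after their values were seen. The 3 genes most like a receptor were those of highest Pearson correlation. Alternatives were a pseudocount of 0.1, no filter, a minimum of 5 FPKM, quality weights, median-of-ratios rescaling, only the groups compared, connective tissue transcripts or the library total as a term, only libraries carrying these transcripts, voom on recovered fragments, leaving out each library and, added later, a correction for GC content and length. Plots were made in Python 3.11.15 using matplotlib 3.10.9.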

Additional observations from a re-analysis of the deposited data

How the results depend on the processing

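No paired analysis was possible because the labels give no replicate numbers, and those used here only follow the order of deposition. Of 75 log2 differences of the 5 tested receptors, 1400 values were computed under the alternatives, and 80 had the other sign, 0 of them for a difference that had passed. Cxcr5 in Ab_60mer against Ab (1 receptor called) and Gpr183 in BRFc_60mer against BRFc (1) passed under each alternative but one. With connective tissue transcripts as a term, which rests on replicates 1 and 2 against replicate 3 of Ab_3mer, 0 receptors were called in any comparison or by the F test. That term also turned Ab_60mer against Ab for Ccr7 (-0.0024) and Gpr183 (-0.0121). In BRFc_60mer against BRFc, 2 were called with no filter, a minimum of 5 FPKM, median-of-ratios rescaling, voom or the GC content and length correction, Cxcr5 being the second, and 3 with quality weights. In Ab_60mer against Ab_3mer, 0 were called in the fit of only these groups, with the library total as a term or among carrying libraries, and 0 to 1 with a library left out. In BRFc_60mer against BRFc_3mer 1 was called in the fit of only these groups, and 0 to 2 with a library left out. BAFF 60mer against BAFF 3mer over both pretreatments called 2 with the library total as a term, and Ccr7 against no BAFF did not pass without BRFc replicate 2 or Ab_60mer replicate 1 (limma, adjusted p = 0.0555 and 0.0597). The library total turned Ccr6 in Ab_60mer against Ab (-0.0146) and against Ab_3mer (-0.0491), and Gpr183 against Ab_3mer (-0.078). Without a library in turn, Ccr6 ran from -0.000531 to 0.11 against Ab and from -0.0114 to 0.0989 against Ab_3mer. The cause was not tested. Rescaling moved the median of all genes by at most 0.026, and depth limits Cxcr3, at 16 to 50 fragments a library.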
